A study of Rattus norvegicus with 8 samples.

Results

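Hnf4a, Pax2, Pax8, Foxq1, Irx1, Irx2, Gata3 and Tfcp2l1 are transcription factor genes that help to set the identity of nephron segments, and all 8 were measured among the 18166 genes of a rat kidney microarray series. They were chosen by name, as probe sets annotated with 1 of these symbols. The choice set no limit on their values, but earlier results of these data were known. The 8 genes had 9 probe sets, because Irx1 had 2. The tissue came from male Wistar rats aged 10 weeks, and every array carries the same treatment label, ethylene glycol given daily with vitamin D every other day for 1 week. Ethylene glycol is converted to oxalate, and the pair of agents is used to form calcium oxalate crystals in the rat kidney. The arrays fall into 2 groups by tissue region, 4 of cortex and 4 of medulla, with no genetic change named in the labels and no untreated group in the samples used here. The labels do not say which arrays share an animal, so the p-values cover no more than array-to-array spread, part of which can be technical.

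The nephron is a tube of distinct segments, and each keeps its own set of transporters under the control of a few transcription factors. Hnf4a is a nuclear receptor that drives the genes of the proximal tubule, the segment that reclaims most of the filtrate. Pax2 and Pax8 are paired-box factors that act together when the nephron lineage is set up and stay on in adult tubules. Irx1 and Irx2 are homeobox factors of the Iroquois family, linked to the intermediate nephron that becomes the loop of Henle. Foxq1 is a forkhead factor. Gata3 acts in the nephric duct and the collecting duct that grows from it, and is also known from T cells and mesangial cells. Tfcp2l1 is a factor of the grainyhead and CP2 family found in the collecting duct.

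Values are log2 of the deposited intensity, and the medians of the arrays lay between 5.09 and 5.12 on this scale. The number of arrays limits the precision. Cortex replicate 4 and medulla replicate 4 stood apart from the other arrays: the injury marker Havcr1 measured 11.27 and 11.32 on them, against 4.54 to 8.95 on the other 6. Cyp24a1, the enzyme that breaks down vitamin D, was high on 4 arrays, at 9.97 to 10.65 on replicates 3 and 4 of the regions and 5.31 to 6.22 on replicates 1 and 2. Whether all 8 arrays share the labelled treatment cannot be told from the labels and values used here, and the SDs, standard errors, intervals and p-values of each region take in these differences between its arrays. The replicate numbers only name arrays within a region and pair none of them across regions. The replicate 4 arrays were singled out by their values and are not a labelled group. The region labels were set against markers. The urea transporter gene Slc14a2 of the inner medulla ranged from 4.80 to 5.88 in cortex and from 6.15 to 7.42 in medulla, without overlap, but its adjusted p by limma was 0.875. It was named for its small unadjusted p and was the 1 gene of the 14 principal cell genes without overlap. Of 12 thick ascending limb, 26 proximal tubule and 6 podocyte genes, 0 were without overlap. The 7 urothelial genes measured all had a higher mean in medulla, and 1 was without overlap. This was Psca, at 4.72 to 5.14 in cortex and 5.36 to 7.53 in medulla, with an adjusted p by limma of 0.875. Of all genes, 2.83% were without overlap. By this measure, which takes in the spread between arrays of a region, the markers set the labelled regions only weakly apart. By the sign of the mean difference, 26 of 26 proximal tubule and 5 of 6 podocyte genes were lower in medulla. So were 4 of 12 thick ascending limb genes, 5 of 14 principal cell genes and 9847 of all 18166 genes. Proximal tubule genes were abundant in the medulla arrays too: the 26 measured summed to 18178 to 24685 intensity units there and 22072 to 27267 in cortex. The labelled medulla tissue therefore carried much proximal tubule signal, and the part this plays in the values below was not tested. In bulk tissue fewer cells of a type and less RNA per cell cannot be told apart.

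None of the 8 transcription factors passed the test between medulla and cortex, and each one's values overlapped between the regions. The largest differences, medulla minus cortex, were 0.29 log2 for Irx2 and -0.29 for Hnf4a. By limma, a linear-model test that pools the spread over genes, with Benjamini-Hochberg adjustment over all genes, 0 of 8 met both limits of a call (an adjusted p under 0.05 and a 2-fold difference), as did 0% of all genes tested. The adjusted p lay between 0.877 and 0.989 for the 8 genes. No gene of the 8 reached an unadjusted p under 0.05 against 5.35% of all genes, and in 0 of 8 did the regions not overlap against 2.83% of all genes. The 95% intervals of the 8 differences all lay between -0.73 and 0.76, so that each stopped short of a 2-fold difference in either direction.

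**Figure D1:**
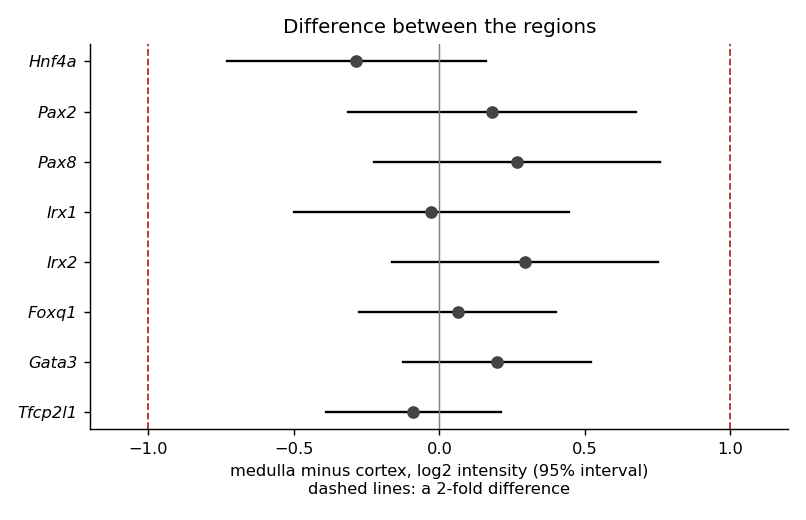
Medulla minus cortex difference of each transcription factor gene in log2 intensity, as a point with its 95% interval from limma (4 arrays in each region). All 8 intervals cross 0 and all lie between -0.73 and 0.76, inside the dashed lines that mark a 2-fold difference.

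Hnf4a, the factor of the proximal tubule, is measured by probe set 17768697. It stood at 9.04, 9.29, 9.47 and 8.85 on cortex replicates 1 to 4 and at 9.16, 9.14, 8.71 and 8.51 on medulla replicates 1 to 4. The highest value was on cortex replicate 3 and the lowest in each region on replicate 4, and medulla replicates 3 and 4 lay below every cortex array. The means were 9.16 ± 0.27 (SD, n = 4) for cortex and 8.88 ± 0.32 (SD, n = 4) for medulla, which puts medulla minus cortex at -0.29 ± 0.19 (SE), with a 95% interval from -0.73 to 0.16. It was -0.16 without medulla replicate 4 and -0.39 without cortex replicate 4. Across the arrays of a region the values spanned 1.54-fold in cortex and 1.57-fold in medulla. Among the proximal tubule genes themselves, the sodium-sulphate cotransporter gene Slc13a1 was highest on replicate 4, at 11.30 in cortex and 10.90 in medulla, and the organic anion transporter gene Slc22a8 stood at 9.68 and 8.67 there. The list had a negative difference in 26 of 26 measured, with a median of -0.35 against -0.01 for all genes, and 0 of them were called. On cortex replicate 4, where Hnf4a was 0.42 below the mean of the other cortex arrays, the median shift of the proximal tubule genes was -0.0056, with members on both sides. Lowest on replicate 4 in both regions were 9 of the 26, highest in both were 7, and 10 were neither. Of all genes, 16.0% were lowest and 17.0% highest there in both regions. The shift in cortex was 2.24 for the glucose transporter gene Slc2a2 and -0.93 for the organic cation transporter gene Slc22a2. On medulla replicate 4 the shift was -0.50 for Hnf4a and -0.32 for the median of the list.

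The rat Hnf4a gene has 2 start sites among the RefSeq promoters of assembly GRCr8, and the annotation does not say from which of them the measured transcripts come. The 250 bases before each start are shown because the sequences differ in exact matches to a half-site of Hnf1 factors. These factors are known regulators of Hnf4a. Capitals mark every match, on either strand, to 1 of 5 motifs. The GC box was searched as GGGCGG. The CCAAT box was searched by the letters of its name. The core site of Gata factors was searched as GATAA. The half-site of Hnf1 factors was searched as GTTAAT. The TATA box was searched as TATAAA, which 12.9% of rat promoters hold and none of the windows printed here does. No matches overlap in these windows. The first start, with its window at chr3:172605970-172606219 on the plus strand, is the start of the gene, and the second window lies at chr3:172641586-172641835 on the same strand.
Hnf4a, first start: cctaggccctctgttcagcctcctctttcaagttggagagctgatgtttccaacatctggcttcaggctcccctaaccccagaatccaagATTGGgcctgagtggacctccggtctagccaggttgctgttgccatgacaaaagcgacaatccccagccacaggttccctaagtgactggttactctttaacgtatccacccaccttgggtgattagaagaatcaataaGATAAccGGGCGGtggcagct
Hnf4a, second start: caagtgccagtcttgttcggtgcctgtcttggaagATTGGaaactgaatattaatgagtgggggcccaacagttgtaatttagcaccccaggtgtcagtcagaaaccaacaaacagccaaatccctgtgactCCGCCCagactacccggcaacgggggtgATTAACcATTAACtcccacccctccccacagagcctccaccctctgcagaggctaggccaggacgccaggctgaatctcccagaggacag
The half-site for Hnf1 factors occurs 2 times before the second start and 0 times before the first, and 6.45% of the 33469 rat promoters of this length hold it. The Gata core site occurs 1 time before the first start and 0 times before the second, and 23.5% of all promoters hold it. These matches describe letters alone, and neither a match nor its absence bears on the binding of a factor.

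Pax2 and Pax8, the paired-box pair, lay at opposite ends of their ranges on the arrays that stood apart. Cortex replicates 1 to 4 gave Pax2 (probe set 17625896) values of 7.92, 7.60, 7.29 and 6.96, and medulla replicates 1 to 4 gave 7.86, 7.62, 7.70 and 7.31. Its lowest value in each region was on replicate 4 and its highest on replicate 1. For Pax8 (probe set 17770022) the cortex arrays gave 8.35, 8.10, 8.21 and 8.78 in the same order, and the medulla arrays gave 8.67, 8.38, 8.34 and 9.13. Here replicate 4 was the highest array of each region. Set against the mean of the other 3 arrays of its region, Pax8 on replicate 4 was 0.57 higher in cortex and 0.67 higher in medulla. Pax2 was 0.65 lower (-0.65) in cortex and 0.42 lower (-0.42) in medulla by the same measure. Without the replicate 4 arrays the Pax8 range shrank from 0.68 to 0.24 log2 in cortex and from 0.79 to 0.33 in medulla, and that of Pax2 from 0.96 to 0.63 and from 0.56 to 0.25. Replicate 4 was an extreme array of each region for both genes, so leaving it out must narrow the range. No label sets the replicate 4 arrays against the others, so these shifts are descriptions with no test.

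Both paired-box genes had a higher mean in medulla, by less than the spread of their arrays. Pax2 averaged 7.44 ± 0.41 (SD, n = 4) over cortex and 7.62 ± 0.23 (SD, n = 4) over medulla arrays. Its medulla minus cortex was 0.18 ± 0.21 (SE), 0.02 without cortex replicate 4 and 0.34 without cortex replicate 1. Pax8 averaged 8.36 ± 0.30 (SD, n = 4) over cortex and 8.63 ± 0.36 (SD, n = 4) over medulla arrays. Its medulla minus cortex was 0.27 ± 0.21 (SE), 0.10 without medulla replicate 4 and 0.41 without cortex replicate 4. Pax8 was the 1 gene of the 8 whose values spanned 2-fold over all 8 arrays, at 2.03-fold. The genes whose centred pattern over the 8 arrays lay closest to it were Hspb1, Plec and Esyt1, with root mean square differences of 0.084, 0.089 and 0.095 log2. Hspb1 encodes a small heat shock protein and Plec the cytoskeletal linker plectin. These genes were picked for their likeness to Pax8 on these arrays, so a high replicate 4 value follows from the pick. Hspb1 measured 6.24 in cortex and 6.80 in medulla there, against 5.65 to 5.73 and 5.77 to 6.13 on the other arrays.

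**Figure D2:**
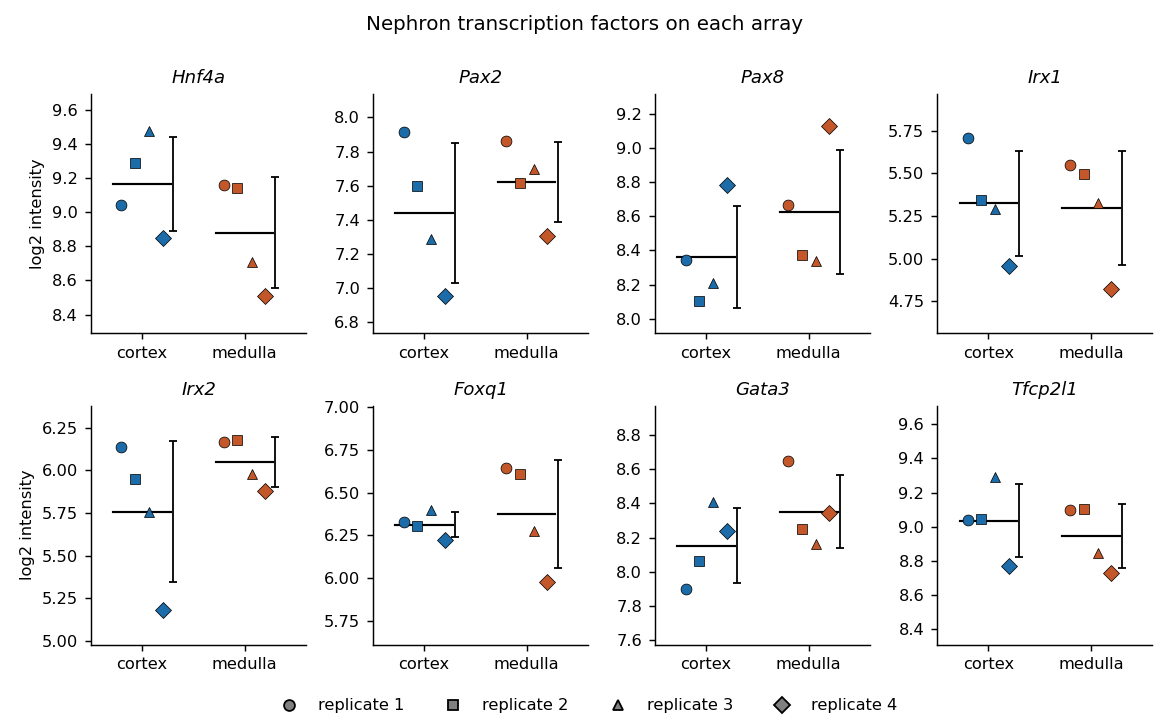
Log2 intensity of the 8 genes on each array, cortex in blue and medulla in orange, with a marker shape for each replicate number, a line at the region mean and a bar of 1 SD beside it (4 arrays in each region). Each panel spans the same height of the log2 axis. Replicate 4, the diamond, is lowest in both regions for 6 genes and highest in both for Pax8.

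Irx1 and Irx2 are neighbours on rat chromosome 1, with no other protein-coding gene between them in the RefSeq table. Their windows of 250 bases before the start are shown so that the neighbouring genes can be compared. The marks are those used for Hnf4a. The Irx1 window lies at chr1:33122872-33123121 on the plus strand and the Irx2 window at chr1:32494931-32495180 on the minus strand, in GRCr8.
Irx1: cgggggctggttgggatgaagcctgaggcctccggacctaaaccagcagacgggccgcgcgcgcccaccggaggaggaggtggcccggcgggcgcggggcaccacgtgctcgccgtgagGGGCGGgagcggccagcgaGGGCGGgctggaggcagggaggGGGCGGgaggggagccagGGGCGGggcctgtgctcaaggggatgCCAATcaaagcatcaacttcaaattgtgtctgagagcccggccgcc
Irx2: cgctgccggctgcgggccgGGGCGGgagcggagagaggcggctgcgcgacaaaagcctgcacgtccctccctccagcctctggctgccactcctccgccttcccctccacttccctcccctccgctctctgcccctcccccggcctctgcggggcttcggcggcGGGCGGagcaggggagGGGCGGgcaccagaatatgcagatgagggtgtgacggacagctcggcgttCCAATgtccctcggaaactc
The GC box occurs 4 times before Irx1 and 3 times before Irx2, and 30.5% of rat promoters hold at least 1. A CCAAT box occurs 1 time before each, as it does at least once in 34.0% of promoters. Neither window holds the Gata core site or the Hnf1 half-site, and guanine and cytosine make up 72.8% of the Irx1 window and 71.6% of the Irx2 window.

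Irx2 (probe set 17717611) stood at 6.14, 5.95, 5.76 and 5.18 on cortex replicates 1 to 4, and the 4 medulla replicates read 6.16, 6.17, 5.98 and 5.88. Cortex replicate 4 was lower than the 7 other arrays, and the cortex values reached up into those of the medulla. Its means were 5.76 ± 0.41 (SD, n = 4) and 6.05 ± 0.15 (SD, n = 4), a difference of 0.29 ± 0.20 (SE). This difference was 0.10 without cortex replicate 4 and 0.42 without cortex replicate 1. The range was 1.94-fold in cortex but 1.23-fold in medulla. The cortex range rests on replicate 4, whose value of 5.18 lay close to the array medians of 5.09 to 5.12. The brighter Irx1 probe set, 17870134, read 5.71, 5.34, 5.29 and 4.96 over the cortex arrays, then 5.55, 5.49, 5.33 and 4.82 over those of medulla. Replicate 4 was the lowest array of each region, and the regions overlapped along nearly their whole range. Its means were 5.32 ± 0.31 (SD, n = 4) and 5.30 ± 0.33 (SD, n = 4), a difference of -0.03 ± 0.20 (SE) that turned positive without cortex replicate 1 (0.099) or medulla replicate 4 (0.13). The other Irx1 probe set, 17713545, stayed between 5.14 and 5.34 on all 8 arrays. It had its lowest value in each region on replicate 4 as well, but its range was 0.11 in cortex and 0.18 in medulla, against 0.75 and 0.73 for the brighter one. The probe sets of Irx1 therefore disagree in the size of the spread, and both lie close to the array medians.

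Genes of the thick ascending limb, the salt-reabsorbing part of the loop of Henle, were read beside the Irx genes. In this list the range reached 2-fold in 11 of 12 measured genes in cortex (3.60% of all genes) and 10 of 12 in medulla (3.80%). The list had 8 of 12 genes lowest on replicate 4 in both regions, against 16.0% of all genes. Its median shift on replicate 4 was -1.29 log2 in cortex and -1.01 in medulla, larger than the -0.49 and -0.64 of Irx1 and the -0.76 and -0.23 of Irx2. The list was not matched to the Irx genes on level. Its genes ran from Cldn14, at 4.62 to 5.03, to Umod, at 10.54 to 11.89, and Irx1 lay at 4.82 to 5.71. The calcium-sensing receptor gene Casr stood at 6.48 on both replicate 4 arrays and between 8.15 and 8.72 on the other 6. For the cotransporter gene Slc12a1, cortex replicate 4 gave 8.62 and the remaining cortex arrays 10.42 to 11.26, while medulla replicate 4 gave 10.15 and the remaining medulla arrays 11.07 to 11.25. The prostaglandin receptor gene Ptger3 and the claudin gene Cldn19 of the same list went the other way and were highest on replicate 4, with Cldn19 at 7.99 in cortex and 9.16 in medulla. Between the regions 0 of the 12 were called, and their median difference was 0.17.

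Foxq1 (probe set 17719167) was the steadiest of the 8 in cortex, at 6.33, 6.31, 6.40 and 6.22, a range of 1.13-fold. On the medulla arrays it measured 6.65, 6.61, 6.27 and 5.98, so that replicates 1 and 2 lay above the cortex values, replicate 3 among them and replicate 4 below. The means were 6.31 ± 0.07 (SD, n = 4) and 6.38 ± 0.31 (SD, n = 4), a difference of 0.06 ± 0.15 (SE) whose sign turned when medulla replicate 1 or 2 was left out. Replicate 4 was its lowest array in both regions, by 0.12 (-0.12) in cortex and 0.53 (-0.53) in medulla against the mean of the others.

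Gata3 (probe set 17716920) was the 1 gene of the 8 for which replicate 4 was neither the lowest nor the highest array of either region. The cortex arrays gave 7.90, 8.06, 8.41 and 8.24 and those of medulla 8.65, 8.25, 8.16 and 8.35. The highest values were on cortex replicate 3 and medulla replicate 1, and the regions overlapped. The means were 8.15 ± 0.22 (SD, n = 4) and 8.35 ± 0.21 (SD, n = 4). The difference of 0.20 ± 0.14 (SE) was 0.10 without medulla replicate 1 and 0.28 without cortex replicate 3. Of the other cells that can express Gata3, T cells are marked by the receptor genes Cd3e, Cd3d and Cd3g, which lay between 4.35 and 4.71 on all 8 arrays, where the lower quartile of an array was 4.44 to 4.48. Cd4, which helper T cells and rat macrophages carry, ranged from 6.31 to 8.02, and the part of leukocytes in the Gata3 values was not tested. The stromal and mesangial list summed to 1001 to 1694 intensity units in cortex and 1129 to 2183 in medulla over 10 of 11 genes, with Pdgfrb at 6.59 to 7.50, and its part in the Gata3 values was not tested.

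Tfcp2l1 (probe set 17679651) stood at 9.04, 9.04, 9.29 and 8.77 on the cortex arrays, where the medulla arrays gave 9.10, 9.10, 8.85 and 8.73. Replicate 4 was again the lowest of each region, and all medulla values but that one fell inside the cortex range. The means of 9.03 ± 0.21 (SD, n = 4) and 8.94 ± 0.19 (SD, n = 4) differed by -0.09 ± 0.13 (SE). This difference was -0.0048 without cortex replicate 3 and -0.18 without cortex replicate 4. Its shift on replicate 4 was -0.36 in cortex and -0.29 in medulla. Genes of the collecting duct cell types lay further down on the same arrays: the median shift was -0.52 and -0.77 for 14 principal cell genes and -0.66 and -0.81 for 14 measured intercalated cell genes. Lowest on replicate 4 in both regions were 9 of the 14 principal cell genes and 11 of the 14 intercalated cell genes, against 16.0% of all genes. Highest there in both was 1 principal cell gene, Krt18, at 7.25 in cortex and 7.44 in medulla. Neither held for 4 principal cell genes and 3 intercalated cell genes. Aqp2, the vasopressin-regulated water channel gene of principal cells, stood at 8.03 on cortex replicate 4, where the remaining cortex arrays ranged from 9.36 to 9.72, and at 8.12 on medulla replicate 4, where the remaining ones ranged from 9.41 to 10.78.

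Within the regions the 8 genes varied by less than 2-fold. The study's design text selects genes with a change of at least 2-fold in each region, and by the range between arrays 0 of 8 reached it in cortex (3.60% of all genes), 0 of 8 in medulla (3.80%) and 0 of 8 in both (2.21%). The nearest were Pax2 at 1.95-fold and Irx2 at 1.94-fold, both in cortex. The Irx2 range rests on cortex replicate 4, at 5.18, close to the array medians. A range of 1.5-fold was reached in cortex by 5 of 8 against 11.4% of all genes, in medulla by 4 of 8 against 15.1%, and in both regions by 3 of 8 against 8.12%. Those 3 were Hnf4a, Pax8 and Irx1. The median range was 0.65 log2 in cortex and 0.60 in medulla for the 8 genes, against 0.21 and 0.25 for all genes, many of which are dim and were not matched on level.

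Taken by array, 6 of the 8 genes were lowest on replicate 4 in both regions, which held for 16.0% of all genes. These were Hnf4a, Pax2, Foxq1, Irx1, Irx2 and Tfcp2l1. Pax8 was the 1 gene highest on replicate 4 in both, as were 17.0% of all genes. The same 8 genes fell into the same classes after quantile normalization, after median centring and with probe sets averaged per gene. These settings left little room for a change. The array medians already lay between 5.09 and 5.12, and only Irx1 had more than 1 probe set. For the 8 genes the median shift on replicate 4 was -0.39 in cortex and -0.35 in medulla, against -0.0011 and -0.0048 for all genes. Without the replicate 4 arrays the ranges of the 8 lay between 0.090 and 0.63 log2 in cortex and between 0.20 and 0.49 in medulla.

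**Figure D3:**
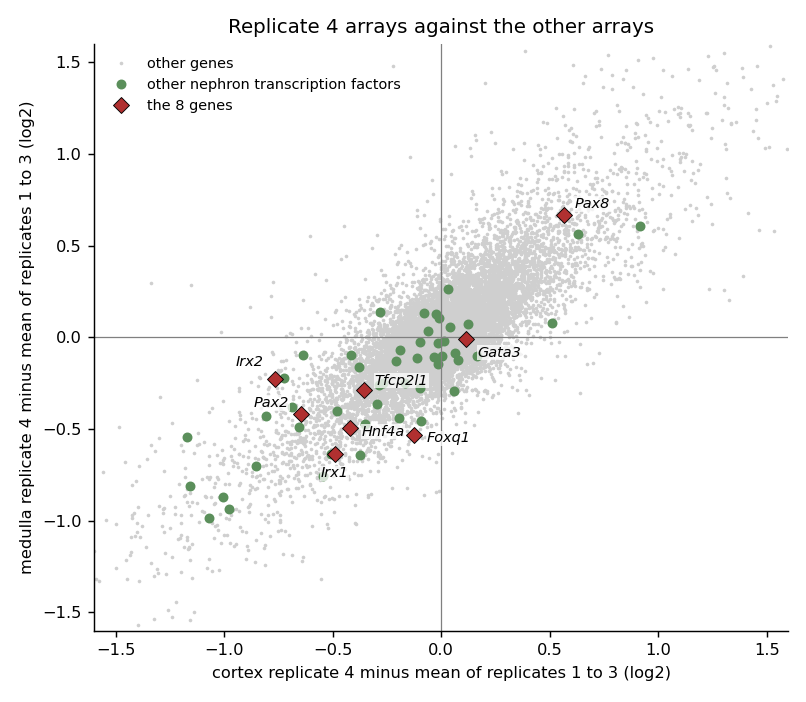
Log2 intensity on replicate 4 minus the mean of replicates 1 to 3, in cortex (horizontal axis) and in medulla (vertical axis), for the 8 genes (red diamonds, named), 49 other nephron transcription factors (green) and all other genes (grey). The 105 genes beyond 1.6 on either axis are not drawn. Pax8 lies at 0.57 and 0.67, Gata3 at 0.12 and -0.0067, and the other 6 genes are below 0 on both axes.

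A list of 55 other transcription factors of the nephron lineage was read in the same way, and 49 were measured. Between the regions 0 were called in either direction, 27 had a positive and 22 a negative difference, and the median was 0.02. Before adjustment, 7 of the 49 had p under 0.05 by limma, against 5.35% of all genes. Higher in mean in medulla were Grhl2, a grainyhead factor of epithelia, by 0.45 ± 0.12 (SE), Nfat5, which drives the response to hypertonicity, by 0.78 ± 0.24, Ehf by 0.73 ± 0.28 and Gata2 by 0.26 ± 0.11. Lower in mean were Lmx1b, a podocyte factor, at -0.22 ± 0.07, Foxd1, a factor of the renal stroma, at -0.22 ± 0.07, and Hmx2 at -0.26 ± 0.09. The last 3 did not overlap between the regions. The adjusted p by limma was 0.875 for each of the 7.

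In this wider list 22 of 49 genes were lowest on replicate 4 in both regions, against 16.0% of all genes. Highest there were 2, Elf3 and Sox4, against 17.0% of all genes. The range reached 2-fold in 9 of 49 in cortex (3.60% of all genes), 4 of 49 in medulla (3.80%) and 3 of 49 in both (2.21%). Those 3 were Esrrg, Sim1 and Klf15, and all were lowest on replicate 4. Esrrg, an orphan nuclear receptor of oxidative metabolism, measured 6.90 and 6.88 on the replicate 4 arrays of cortex and medulla against 7.63 to 8.12 on the other 6. Sim1 measured 5.96 and 6.30 against 6.99 to 7.32, and Klf15 measured 5.36 and 5.16 against 5.94 to 6.57. The mineralocorticoid receptor gene Nr3c2 measured 6.09 and 6.22 against 6.92 to 7.21, and Pou3f3, which is needed for the loop of Henle, 6.97 and 7.27 against 7.71 to 8.04. Of the other Iroquois genes, Irx3 was lowest on replicate 4 in both regions, at 6.33 and 6.18, while Irx5 in medulla was lowest on replicate 3, at 5.95.

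Other cell types and states were read on the same arrays, where 17.0% of all genes were highest and 16.0% lowest on replicate 4 in both regions. Genes of tubular injury were highest on replicate 4 in both regions in 12 of 16, with median shifts of 0.88 in cortex and 1.07 in medulla, and proliferation genes in 11 of 11 measured, with 0.85 and 1.06. The leukocyte list was highest there in 5 of 15, with median shifts of 0.044 and 0.22 and summed intensities of 820 to 1397 units in cortex and 1041 to 1890 in medulla. Endothelial genes were lowest there in 6 of 7 measured. So were 4 of 12 distal convoluted and connecting tubule genes, 2 of 6 podocyte genes, 2 of 7 urothelial genes and 1 of 10 stromal and mesangial genes. The last 4 lists had median differences between the regions of -0.27, -0.42, 0.29 and 0.20, with 0 genes called in each. The part of any of these in the values of the 8 genes was not tested.

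**Figure D4:**
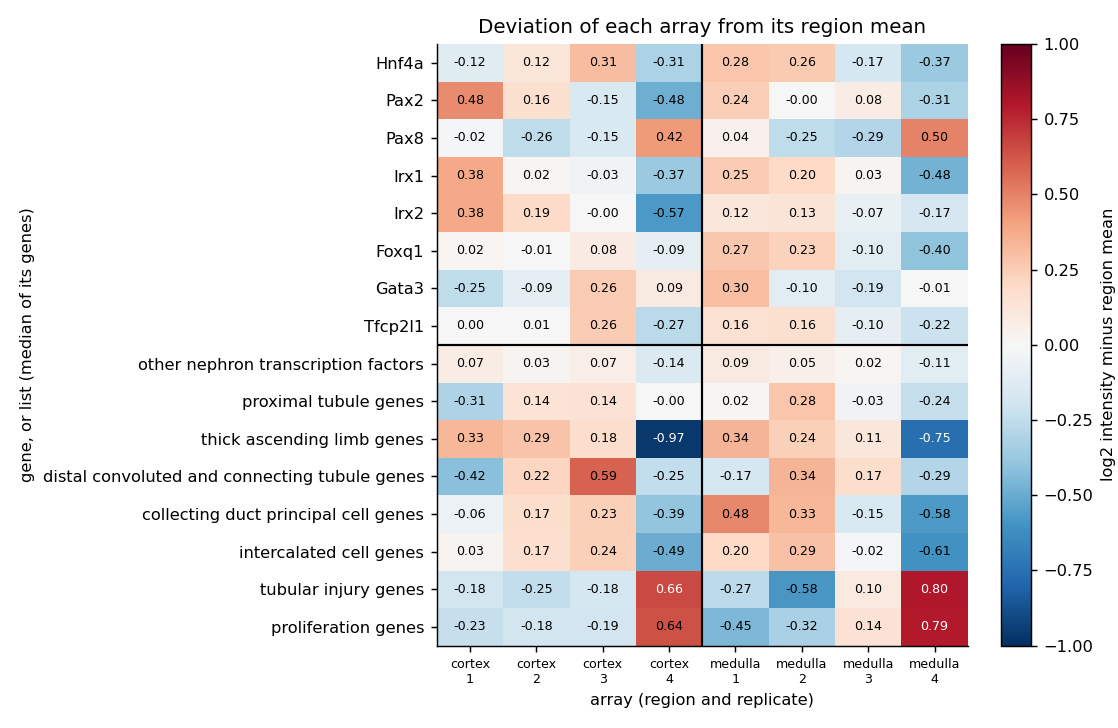
Log2 intensity minus the region mean on each of the 8 arrays, for the 8 genes (upper rows) and for the medians of 8 gene lists (lower rows), in colour and figures. On the replicate 4 arrays Pax8 stands at 0.42 and 0.50, the thick ascending limb list at -0.97 and -0.75 and the tubular injury list at 0.66 and 0.80.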

How the data were processed

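Total RNA from homogenised kidney was labelled with biotin and hybridised to Affymetrix arrays that cover whole transcripts (per the labels' protocols). The deposited values are 1 intensity for each probe set on each array. The submitters' processing notes name Affymetrix Expression Console and RMA, with versions, settings and genome build left unstated there (not given in the sources used here). Since the values ran from 17.3 to 6229 and the arrays' quartiles nearly coincide, they were taken as linear and normalized between arrays, and log2 was taken with no pseudocount. Of 29870 probe sets, 18511 had 1 symbol in the platform's annotation, 575 several and 10784 none. Entrez identifiers matched the RefSeq table of GRCr8 for 18394, with 0 symbols changed. The brightest probe set stood for each of 291 genes with several, giving 18166 genes with no filter on dim ones. No 2 arrays shared over 1 identical value.

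All 8 arrays entered 1 limma fit (version 3.58.1, R 4.3.3, lmFit with eBayes) of medulla minus cortex. A call needed a Benjamini-Hochberg adjusted p, over the whole table, under 0.05 together with a 2-fold difference. The fit was tested on simulated data. Ranges are the highest minus the lowest log2 value in a region. The members, the 13 other gene lists (199 of 221 entries measured) and the alternatives were chosen with earlier results of these data known. Genes named besides the 8 were drawn from those picked by a rule, and not all picked genes are printed. Per list, the rule took those with the widest range in both regions (2, or all past 2-fold among transcription factors). It also took those with the smallest p (2, or 6 among transcription factors). Further picks were 4 genes known to separate the arrays (Havcr1, Cyp24a1, Umod and Fga) and the 3 nearest in pattern to a member spanning 2-fold. Slc12a1, Slc22a2, Aqp2, Krt18, Cd3e, Cd3d, Cd3g, Nr3c2, Pou3f3, Elf3, Sox4, Irx3, Irx5 and Gata2 were added after their values were seen. Promoters of all 8 genes were found in RefSeq (GRCr8). Figures used matplotlib 3.10.9.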

Additional observations from a re-analysis of the deposited data

How the results depend on the processing

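The count of called genes among the 8, and among all genes, stayed at 0 under quantile normalization, median centring, the mean of probe sets, a filter on the dimmest 30% of genes, a trended robust prior, array weights, the adjusted p alone and any 1 array, or both replicate 4 arrays, left out. The exact permutation test over arrays also called 0 of the 8, with p from 0.20 to 0.94, where the smallest possible is 0.0286. At an unadjusted p under 0.05, 971 genes passed and 0 of the 8. The sign of the difference held for 6 genes under all 15 settings. With any 1 array left out, Irx1 ran from -0.15 to 0.13 and Foxq1 from -0.028 to 0.20, and Irx1 stood at 0.034 with array weights and at 0.0086 without both replicate 4 arrays. At a range of 1.5-fold in place of 2-fold, 5 of the 8 passed in cortex, 4 in medulla and 3 in both, while no other setting moved these counts from 0. No paired analysis was possible because the labels give no number shared between cortex and medulla arrays. Values of Irx1, and of Irx2 on cortex replicate 4, near the array medians limit what the spread of these genes can show.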
